A study of Rattus norvegicus with 2 samples.

Results

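The glycolysis and hypoxia genes form a list of 34 rat genes, and the files hold 33 of them by symbol among 25399 genes. The rule matches gene symbols, and the list, put together with earlier results of these data known, names 16 genes for enzymes of glycolysis and of lactate formation, the regulators Pfkfb3, Pfkfb4 and Pdk1, the sugar and lactate carriers Slc2a1, Slc2a3 and Slc16a3, the oxygen-sensing genes Hif1a, Egln1 and Egln3, and 9 further genes known to follow low oxygen. Gapdh matched no symbol in the files and was not analysed here. Eno2 and Slc2a3 had 0 counts in every barcode of both libraries, which leaves 31 members with counts.

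Cells came from the rat meniscus, a pad of fibrocartilage inside the knee joint, and sequenced on the 10x Chromium platform. The series has 1 library from aged animals and 1 library from young animals, and no other treatment or genotype is named in the labels. How many animals each library holds, and their age in months, is not given in the sources used here. With 1 library per age there is no replicate check, so no test was made, and every interval below is an exact 95% interval that covers counting error only.

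Glycolysis splits glucose into pyruvate, and lactate dehydrogenase turns the pyruvate into lactate when little oxygen is used. Cartilage and the inner meniscus have no blood vessels, and their cells are known to live at low oxygen and to rely on glycolysis. The factor Hif1a is broken down when oxygen is present, through the prolyl hydroxylases Egln1 and Egln3, and otherwise switches on glycolytic enzymes, carriers and further genes such as Vegfa, Bnip3, Adm and Ndufa4l2.

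A barcode was kept as a cell from 500 detected genes on if mitochondrial genes gave no more than 20% of its counts, which left 6085 in the aged library and 8773 in the young library. Their median depth was 3686 and 3846 unique molecular identifiers (UMIs, each standing for 1 captured RNA molecule). Stromal cells had 0 counts of the leukocyte gene Ptprc and fell, in this order, into Col2a1 cells (at least 10 UMIs of Col2a1, a cartilage collagen), Chad cells (at least 10 UMIs of Chad, a cartilage matrix protein), Postn cells (at least 5 UMIs) and Dcn cells (at least 5 UMIs). Neutrophils had at least 20 UMIs of S100a8, monocytes at least 2 of Csf1r, B cells at least 3 of Cd79a and erythroid cells at least 3 of Alas2. The libraries differ in make-up: 0 aged and 110 young cells were Col2a1 cells, 33 and 17 were Chad cells, 24 and 52 were Postn cells, and 463 and 21 were Dcn cells. There were 826 aged and 1180 young neutrophils, 392 and 291 monocytes, 23 and 364 B cells, and 48 and 165 erythroid cells. A further 4246 aged and 6511 young cells were in no gate, and 18 barcodes occurred in both libraries.

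Lists of stromal, neutrophil, monocyte, B and erythroid markers that the gates did not use each took their largest share in the class so named. The monocyte list set monocytes apart from neutrophils only in part. It took 1.77% of aged and 2.78% of young monocyte UMIs, against 1.47% and 1.58% in neutrophils. A list of T and NK cell genes had its largest share in monocytes, at 0.0366% and 0.0328%. A set of 9 stromal markers took 8.97% of the UMIs of young Col2a1 cells and 2.06% to 14.2% in the other stromal classes, against at most 0.166% in any blood class. Median depth ranged from 3066.5 UMIs in aged neutrophils to 17988 in young Postn cells, and the stromal cells were shallower in the aged library: 6800 against 12283 UMIs in Chad cells, and 5835 against 13715 in Dcn cells. The B gate kept few and deep cells in the aged library, since 714 aged and 3249 young cells had at least 1 Cd79a UMI.

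Low-oxygen genes often carry a short core sequence, ACGTG or GCGTG, that Hif1a and its partner can bind. To show what these starts look like, the 170 bases before the start of 5 members that lead the results are printed from the RefSeq promoter table of build GRCr8, 5′ to 3′ on the gene's strand, with each ACGTG or GCGTG on either strand in capitals (CACGT and CACGC are the same letters read from the other strand). The stretches are chr1:106507922-106508091 (plus strand) for Ldha, chr1:203154963-203155132 (minus strand) for Bnip3, chr10:38743724-38743893 (plus strand) for P4ha2, chr5:138002352-138002521 (plus strand) for Slc2a1 and chr7:65241999-65242168 (plus strand) for Ndufa4l2.
Ldha: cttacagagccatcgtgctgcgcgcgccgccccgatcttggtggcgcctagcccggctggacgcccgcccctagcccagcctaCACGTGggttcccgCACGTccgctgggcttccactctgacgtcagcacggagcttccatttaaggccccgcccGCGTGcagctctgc
Bnip3: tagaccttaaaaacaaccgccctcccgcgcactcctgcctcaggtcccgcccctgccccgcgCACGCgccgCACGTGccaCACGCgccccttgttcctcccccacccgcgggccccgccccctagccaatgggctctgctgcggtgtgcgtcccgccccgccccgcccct
P4ha2: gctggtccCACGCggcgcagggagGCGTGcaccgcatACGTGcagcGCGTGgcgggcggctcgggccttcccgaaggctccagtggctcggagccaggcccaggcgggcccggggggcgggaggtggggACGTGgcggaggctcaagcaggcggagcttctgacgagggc
Slc2a1: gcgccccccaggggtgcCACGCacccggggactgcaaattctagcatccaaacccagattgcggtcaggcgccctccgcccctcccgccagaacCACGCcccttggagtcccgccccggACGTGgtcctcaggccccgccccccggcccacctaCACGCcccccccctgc
Ndufa4l2: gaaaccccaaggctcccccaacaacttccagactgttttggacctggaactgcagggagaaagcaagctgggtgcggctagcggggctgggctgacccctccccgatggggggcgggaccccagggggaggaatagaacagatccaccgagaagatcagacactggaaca

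The table held 35 promoters of 30 listed genes, and 21 of the 35 (60%) had ACGTG or GCGTG in the 250 bases before the start, against 36.7% of all 33469 promoters. For ACGTG alone the shares were 37.1% and 16.6%. Ldha and Bnip3 hold the palindrome CACGTG, which counts on both strands and is also the core of the E-box. Ndufa4l2, which gave the most member UMIs in Chad cells, had neither sequence in this window, which says only that these letters are not there. A match is a description of the letters and not a binding site.

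Together the 33 members took between 0.0446% and 1.07% of a class's UMIs. The highest share was in Chad cells, 0.607% (interval 0.578% to 0.638%) in the aged and 1.07% (1.02% to 1.11%) in the young library. Young Col2a1 cells followed with 0.574%, and monocytes had 0.530% in the aged and 0.527% in the young library. Neutrophils had 0.374% and 0.341%, Dcn cells 0.268% and 0.345%, Postn cells 0.256% and 0.291%, and B cells 0.214% and 0.253%. Erythroid cells were lowest in both libraries, at 0.0622% and 0.0446%. The order of the classes was the same in both libraries except for neutrophils and Dcn cells, whose intervals overlapped in the young library, as did those of Dcn and Postn cells in the aged library.

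**Figure D1:**
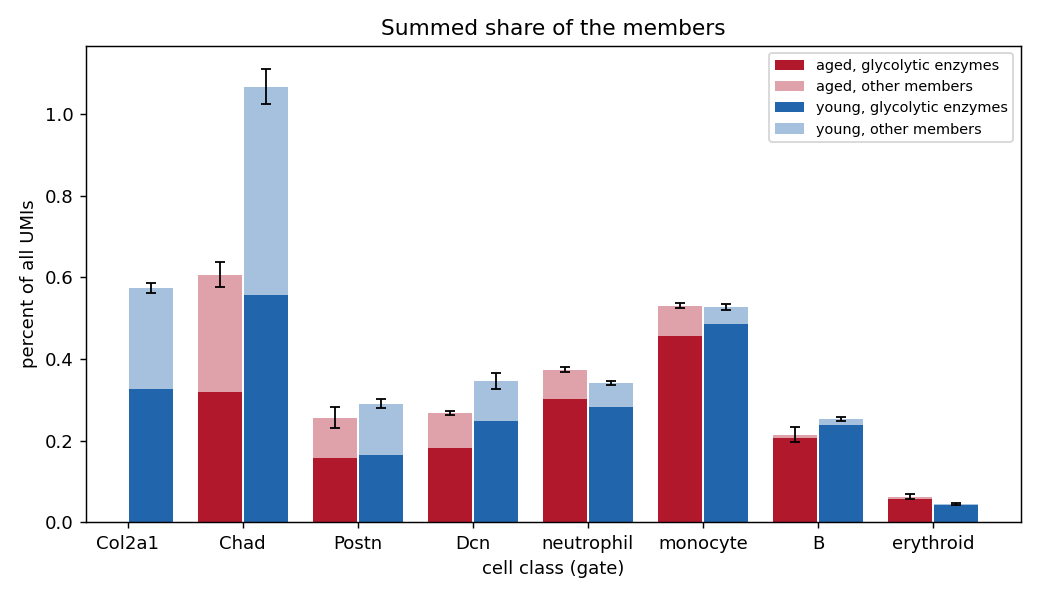
Summed UMIs of the 33 members as a percentage of all UMIs of a class (vertical axis) by cell class (horizontal axis), red for the aged and blue for the young library, dark for the enzymes and light for all other members, with exact 95% intervals of the whole sum. The enzymes make up nearly all of the sum in B and erythroid cells and most of it in monocytes and neutrophils. Other members make up a large part in Col2a1 and Chad cells, and the aged library had 0 Col2a1 cells.

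With every cell thinned to 2000 UMIs, which evens out the depth, and cells with fewer left out (131 of 826 aged and 180 of 1180 young neutrophils, 29 aged Dcn cells and at most 5 cells in any other class), the median share per cell was 0.4% in young Col2a1 cells, 0.4% in aged and 0.85% in young Chad cells, and 0.25% in Postn and Dcn cells of both libraries. It was 0.35% in aged and 0.3% in young neutrophils, 0.45% in monocytes of both libraries, 0.15% and 0.2% in aged and young B cells, and 0 in erythroid cells. The Col2a1 and Chad classes were also the most uneven from cell to cell: in young Col2a1 cells the middle part of the thinned cells ran from 0.2125% to 0.7875% (lower to upper quartile) and the highest cell reached 2.6%. In Postn cells of both libraries no cell exceeded 0.55%.

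The make-up of the sum differed between stroma and blood. The enzymes alone took 0.455% of aged and 0.487% of young monocyte UMIs, above the 0.326% of young Col2a1 cells and the 0.318% of aged Chad cells and below the 0.557% of young Chad cells. The 9 further low-oxygen genes took 0.204% of young Col2a1 UMIs, 0.250% of aged and 0.447% of young Chad UMIs, and 0.0707% to 0.114% in Postn and Dcn cells. In blood classes they took at most 0.0306%, in aged monocytes, and as little as 0.00199% in young erythroid cells. The enzyme sum was thus high in monocytes of both libraries and in young Chad cells. In aged Chad cells its interval (0.297% to 0.341%) overlapped that of aged neutrophils, at 0.302% (0.296% to 0.308%). The sum of the other low-oxygen genes was high in Chad and Col2a1 cells and low in monocytes.

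Ratios to the B cells of the same library put the members beside all genes. This reference was 23 aged and 364 young cells, of which 12 and 195 had at least 2 UMIs of Mki67 and Top2a, genes of dividing cells. In aged B cells the members took 0.275% of UMIs in those 12 cells and 0.0825% in cells with 0 such UMIs, so the ratios hold for this mix. Genes with at least 50 UMIs over both classes were measured, and the share of all measured genes on the same side is given in brackets. In young Col2a1 cells 21 of 26 members were at least 1.5-fold higher than in B cells (20% of 7465 genes) and 2 lower (56.5%). In Chad cells 8 of 12 were higher in the aged library (28.7%) and 0 lower (46.8%), and 16 of 19 were higher in the young library (12.9%) and 1 lower (60.1%). Monocytes had 18 of 22 higher in the aged library (29.8%) and 1 lower (23.9%), and 18 of 23 higher in the young library (20.3%) and 2 lower (34.4%). A larger share of members than of all measured genes was thus higher in these classes, for a list chosen with earlier results of these data known. A gene could pass the minimum through 1 class alone, here and in the classes below. In aged B cells Bnip3, P4ha1, P4ha2 and Ndufa4l2 had 0 UMIs, so their ratios in aged Chad cells come from a floor of 3 UMIs. Slc16a3, Slc2a1, Ndrg1 and P4ha1, counted as higher in aged monocytes, also had 0 UMIs in aged B cells and rest on this floor. The counts are a description and no independent support.

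Postn, Dcn and neutrophil cells gave mixed counts against B cells. Postn cells had 1 of 6 members higher in the aged library (28.8%) and 1 lower (40.2%), and 9 of 20 higher in the young library (21.1%) and 6 lower (53.7%). Dcn cells had 13 of 20 higher (39.4%) and 3 lower (29.7%) in the aged library, and 8 of 18 higher (19.8%) and 6 lower (52.2%) in the young library. Among the 13, Slc2a1, Bnip3, Adm, Ndrg1, P4ha1, P4ha2 and Ndufa4l2 had 0 UMIs in aged B cells. They passed the minimum through Dcn cells alone, and their ratios come from the floor of 3 UMIs. Neutrophils had 10 of 17 higher (27.3%) and 1 lower (50.5%) in the aged library, and 8 of 23 higher (15.7%) and 3 lower (65.7%) in the young library. Of the 10, Slc16a3 and Ndrg1 rest on the same floor. Erythroid cells had 0 of 7 higher (12.9%) and 7 lower (64.1%) in the aged library, and 1 of 14 higher (5.91%) and 13 lower (86.4%) in the young library, where the members' counts lie near the shares over all genes.

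**Figure D2:**
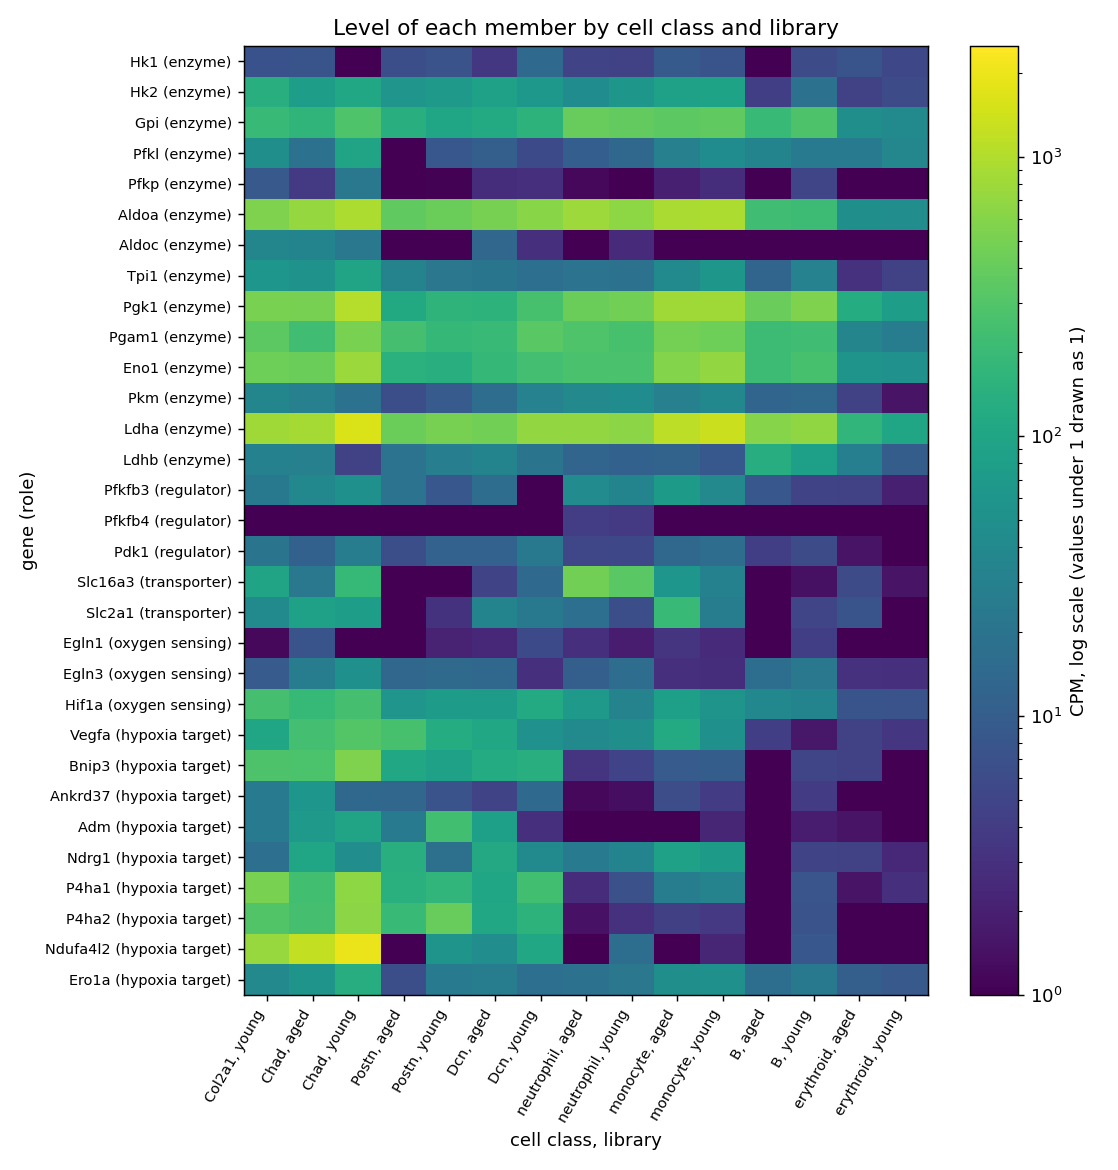
Level of each of the 31 members with counts (vertical axis, role in brackets) in each cell class and library (horizontal axis), in CPM on a log colour scale from 1, dark, to above 1000, yellow, with values under 1 drawn as 1. Ldha is among the brightest rows in every class, and Bnip3, P4ha1, P4ha2 and Ndufa4l2 are bright toward the left, in stromal classes.

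Among the enzymes, Ldha, the lactate dehydrogenase subunit that favours making lactate, stood at 824 CPM (counts per 1000000 UMIs) in young Col2a1 cells and at 865 in aged and 1613 in young Chad cells. It stood at 1156 CPM in aged and 1316 in young monocytes, 695 and 632 in neutrophils, 595 and 676 in B cells, and 171 and 99.7 in erythroid cells. Its lowest stromal levels were 431 CPM in aged and 501 in young Postn cells, which were still above both erythroid values. Aldoa, the main aldolase outside liver and brain, had 934 CPM in aged and 947 in young monocytes, 794 and 669 in neutrophils, 731 and 959 in Chad cells, but 225 and 211 in B cells. Pgk1, which makes the first ATP of the pathway, had 832 and 826 CPM in monocytes and 412 and 551 in B cells. Neutrophils had Pgk1 at 428 and 478 CPM, so B cells lay far below neutrophils in Aldoa and close to them in Pgk1 and Ldha.

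Hk2, the hexokinase that traps glucose in the cell, had 141 CPM in young Col2a1 cells, 80.4 in aged and 105 in young Chad cells and 87.7 and 92.7 in monocytes. B cells had 4.25 CPM in the aged (1 UMI) and 19.1 in the young library. Of the UMIs of the pair Hk1 and Hk2, Hk2 took 95.2% in young Col2a1 cells, 90.6% and 92.4% in aged and young monocytes and 90.0% and 93.0% in neutrophils. It took 75.7% (66.5% to 83.5%) in young B cells and 52.2% (30.6% to 73.2%) in young erythroid cells, below the intervals of monocytes. Eno2 had 0 UMIs in every barcode of both libraries, beside 3236 UMIs of Eno1 in aged monocytes. Whether the files can count Eno2 at all was not tested, so no share of this pair is given.

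Ldhb, the subunit that favours turning lactate back into pyruvate, took a share of the Ldha and Ldhb UMIs that differed between classes. It was 18.1% (12.7% to 24.7%) in aged and 10.9% (9.84% to 12%) in young B cells and 14.5% and 9.09% in erythroid cells. In monocytes it was 1.04% and 0.646%, and in neutrophils 1.80% and 1.78%. Most stromal values lay between, except 0.282% in young Chad cells (1 of 354 UMIs), at 3.68% in young Col2a1 cells and 6.79% (5.54% to 8.22%) in aged against 2.80% (1.13% to 5.68%) in young Dcn cells. Both libraries therefore put B and erythroid cells above myeloid cells, with intervals that do not overlap.

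**Figure D3:**
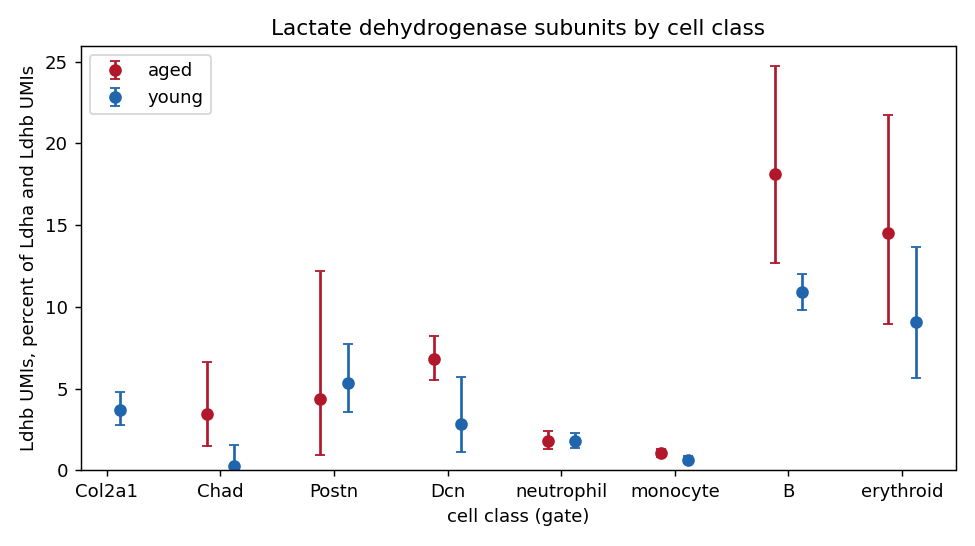
Ldhb UMIs as a percentage of the Ldha and Ldhb UMIs (vertical axis) by cell class (horizontal axis), red for the aged and blue for the young library, points for the share and bars for exact 95% intervals. B and erythroid cells sit at 9.09% to 18.1% and monocytes at or below 1.04% in both libraries.

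Gpi, which follows hexokinase, had 408 CPM in aged and 377 in young neutrophils, 351 and 374 in monocytes, 204 and 284 in B cells, 48.9 and 40.9 in erythroid cells and 102 to 288 in the stromal classes. Eno1 had 589 and 693 CPM in monocytes, 429 and 777 in Chad cells and 135 to 243 in Postn and Dcn cells, and Pgam1 had 480 and 448 CPM in monocytes. Tpi1 and Pkm stayed at or below 95.9 and 44.4 CPM in every class. Of the phosphofructokinases, Pfkl had 95.9 CPM in young Chad and 49.9 in young Col2a1 cells and 29.8 and 45.3 in monocytes, and Pfkp was sparse, at 22.8 CPM (5 UMIs) in young Chad cells and at most 8.90 elsewhere. Pdk1 stayed at or below 27.4 CPM and Ero1a, an oxidase of protein folding, at or below 132 CPM, both in young Chad cells.

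Aldoc, the aldolase known from brain, was found mainly in Col2a1, Chad and aged Dcn cells and hardly in blood. It took 6.19% (4.78% to 7.86%) of the Aldoa and Aldoc UMIs in young Col2a1 cells, 4.50% in aged and 2.33% in young Chad cells and 2.63% in aged Dcn cells. In monocytes it had 2 of 5137 pair UMIs in the aged and 0 of 4097 in the young library. Neutrophils had 0 of 2686 in the aged and 14 of 3568 (0.392%) in the young library. Young Dcn cells were close to the latter, with Aldoc at 1 of 215 (0.465%). In Postn cells Aldoc had 0 of 56 and 0 of 405, so the stromal classes were not alike. Pfkfb4, a regulator that sets the level of a phosphofructokinase activator, gave 14 UMIs in aged and 20 in young neutrophils, 8.64% and 10.0% of the UMIs it shares with Pfkfb3, and 4 UMIs in monocytes of each library.

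Of the carriers, Slc16a3, which exports lactate, had its highest level in neutrophils: 476 CPM in the aged and 340 in the young library. Monocytes had 60.8 and 31.5 CPM, young Col2a1 cells 95.6, and Chad cells 23.0 in the aged (6 UMIs) and 187 in the young library. It was at 0 in Postn cells of both libraries and in aged B cells. With cells thinned to 2000 UMIs, 51.2% of aged and 34.5% of young neutrophils had a Slc16a3 UMI, against 0.275% of young B cells and 1.22% of young erythroid cells. The thinned shares rest on 695 aged and 1000 young neutrophils. Before thinning, with all cells, these shares were 63%, 51.3%, 0.549% and 1.82%, at median depths of 3066.5, 3584, 8486 and 10876 UMIs. Young Col2a1 and Chad cells had 59.1% and 76.5% before thinning and 20% and 23.5% after it, so both lay above young neutrophils before thinning and below them after it.

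Within neutrophils Slc16a3 differed with the granule genes Camp, Ltf and Ngp, which mark earlier stages. Cells with fewer than 10 UMIs of these genes had 839 CPM in the aged and 778 in the young library, and cells with 10 or more had 365 and 214. Ldha went the same way, with 929 and 879 CPM in granule-low cells and 624 and 561 in granule-rich cells. Pgk1 did not, with 413 and 508 CPM against 433 and 470. All members together took 0.448% and 0.439% in granule-low and 0.351% and 0.313% in granule-rich cells.

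The low-oxygen genes that belong to collagen making and to mitochondria were stromal. P4ha1 and P4ha2, catalytic subunits of the enzyme that hydroxylates collagen, had 511 and 300 CPM in young Col2a1 cells. In Chad cells P4ha1 had 233 CPM in the aged and 662 in the young library, and P4ha2 had 249 and 649. In neutrophils P4ha1 had 2.66 and 6.96 CPM and P4ha2 1.48 and 3.01. Monocytes had P4ha1 at 26.7 and 32.6 CPM and P4ha2 at 4.37 and 3.70. P4ha2 thus took 70.4% (66.4% to 74.2%) of the pair in young Postn cells, 37.0% (34.4% to 39.6%) in young Col2a1 cells and 10.2% to 14.0% in monocytes.

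Bnip3, which marks mitochondria for removal, had 284 CPM in young Col2a1 cells, 276 and 553 in aged and young Chad cells, 105 and 88.4 in Postn cells and 122 and 140 in Dcn cells. No blood class exceeded 10.2 CPM. Hif1a itself had 245 CPM in young Col2a1 cells and 191 and 247 in Chad cells, against 82.2 and 57.8 in monocytes and 7.64 and 7.47 in erythroid cells. Egln1 and Egln3 were sparse everywhere, at most 7.65 CPM for Egln1 and 50.2 for Egln3, both in Chad cells.

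Ndufa4l2, a small mitochondrial protein made at low oxygen that lowers the use of oxygen, had far higher levels in Chad and Col2a1 cells than in any other class. It had 740 CPM in young Col2a1 cells, 1206 in aged and 2005 in young Chad cells, 0 in aged and 57.9 in young Postn cells, and 45.8 and 105 in aged and young Dcn cells. Erythroid cells had 0 of 654690 and 0 of 2006724 UMIs. It gave 19.9% of all member UMIs in aged and 18.8% in young Chad cells, more than any other member there. In the young library 91 UMIs in neutrophils came from 12 of 1180 cells, 32 of them from 1 cell, and in those 12 cells stromal markers took 4.41% of UMIs against 0.0392% in the other neutrophils. In young B cells 8 of 364 cells held the 35 UMIs, 28 of them in 1 cell, and had 1.39% stromal markers against 0.118%. The young blood cells with the gene thus also held more stromal RNA than the others, and what part that has in the blood values was not tested.

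Inside the Col2a1 and Chad gates Ndufa4l2 was high in some cells and not detected in others. After thinning to 2000 UMIs, 37 of 110 young Col2a1 cells (33.6%, 24.9% to 43.3%) still had a UMI, against 42.7% before thinning, and 0 of 164 young erythroid cells did, which allows up to 2.22%. In Chad cells 16 of 33 aged (48.5%) and 13 of 17 young cells (76.5%) had one after thinning. The cell with most held 124 UMIs. Thinning took few cells out of this group, while for Slc2a1 in the same Col2a1 cells the share went from 40.0% to 7.27%.

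The other members were therefore compared between cells with and without an Ndufa4l2 UMI, a split chosen after these values were seen and given as a description. In young Col2a1 cells, 47 cells had a UMI and 63 had none, at median depths of 15042 and 14974 UMIs. The other members took 0.754% of UMIs in the first and 0.310% in the second, a log2 ratio of 1.28 (1.22 to 1.35). Of 20 other members measured, 16 were at least 1.5-fold higher with Ndufa4l2 and 1 was lower, where 6.24% of 3235 genes were higher and 9.3% lower. Their median log2 ratio was 1.02, against -0.06 over all genes.

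Vegfa, the vessel growth factor, differed most, with 192 CPM in cells with Ndufa4l2 and 36.3 in cells without (log2 ratio 2.40, 1.86 to 2.98). Pgk1 had 934 and 196 CPM (2.25), Ldha 1463 and 349 CPM (2.07) and Bnip3 498 and 124 CPM (2.00). Aldoa had 787 and 387 CPM (1.02) and P4ha1 658 and 402 CPM (0.71). P4ha2 had 477 and 168 CPM (1.51, 1.23 to 1.79), so the 2 collagen hydroxylase subunits differed by unequal amounts. Hif1a differed little, with 288 and 213 CPM (0.43, 0.15 to 0.72), and Hk2 had 131 and 148 CPM (-0.18, -0.57 to 0.21). Ldhb was the 1 lower member, with 23.6 and 37.3 CPM (-0.66, -1.58 to 0.21).

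**Figure D4:**
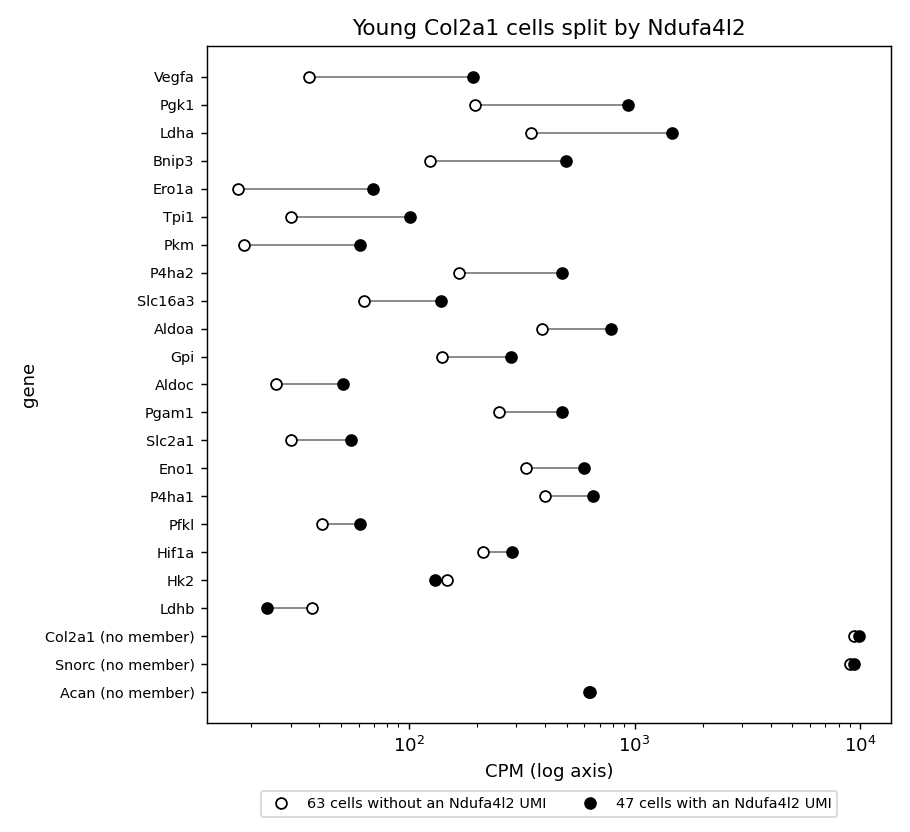
Level (horizontal axis, CPM, log axis) of the 20 measured members and 3 cartilage genes (vertical axis) in young Col2a1 cells with an Ndufa4l2 UMI (filled, 47 cells) and without (open, 63 cells). Vegfa, Pgk1 and Ldha lie more than 4-fold apart, Hk2 and Ldhb lie the other way, and Col2a1, Snorc and Acan nearly coincide. Other genes outside the list are not drawn, among them Chad, Col1a1, Col3a1 and Comp, which were higher in cells with Ndufa4l2.

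Some cartilage genes outside the list were near equal in these groups: Col2a1 had 9902 and 9390 CPM, Snorc 9353 and 8961 and Acan 633 and 627. Others differed, with Chad at 7099 and 2566 CPM, Col1a1 at 3043 and 972 and Comp at 9803 and 6191, and mitochondrial genes took 5.05% and 6.61% of UMIs. What part these differences have in the members' values was not tested. Higd1a and Fam162a, mitochondrial low-oxygen genes from a separate list, had 488 and 102 CPM and 535 and 145 CPM.

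Chad cells gave the same direction in both libraries, in smaller groups. In the aged library 22 cells with and 11 without Ndufa4l2 had 0.570% and 0.275% of their UMIs in the other members (log2 ratio 1.05, 0.83 to 1.28), and 8 of 10 measured members were higher (19.4% of all genes). In the young library 13 and 4 cells had 1.03% and 0.252% (2.03, 1.76 to 2.31), and 11 of 11 were higher (33.1%). There the groups also differed in Col1a1, at 32551 CPM with and 21.9 without, so the 4 cells stand apart in more than the members. The aged groups differed outside the list too, with Prg4 at 26546 and 4182 CPM, Col3a1 at 374 and 13.5 CPM, Col1a1 at 347 and 67.7 CPM and mitochondrial genes at 2.93% and 6.50% of UMIs. What part these differences have in the members' values was not tested. In aged Chad cells Ldha had 928 and 704 CPM and P4ha2 336 and 27.1, a larger contrast for the hydroxylase than for Ldha.

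The study set aged against young meniscus, and in monocytes the member furthest apart was Slc2a1, the main glucose carrier of many cell types. It had 203 CPM in the aged (1118 UMIs in 235 of 392 cells) and 27.1 CPM in the young library (117 UMIs in 75 of 291 cells), a log2 ratio of 2.91 (2.63 to 3.20). The aged value lay far outside the counting interval of the young value, 22.4 to 32.4 CPM. With cells thinned to 2000 UMIs, 30.7% of aged and 5.92% of young monocytes had a Slc2a1 UMI, against 0.610% of young erythroid cells. The contrast held in parts of the class, with 169 and 18.7 CPM in cycling monocytes, 279 and 36.2 in those with 0 cycling UMIs, 58.2 and 7.74 in those with at least 2 C1qa UMIs, and 225 and 29.0 in the others. Cells in no gate had 37.3 and 6.22 CPM and neutrophils 17.4 and 6.58.

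Beside Slc2a1, a minority of the monocyte members differed. Of 23 members measured in monocytes, 5 were at least 1.5-fold higher in the aged library, where 8.08% of 7954 genes were, and 2 were lower, where 15.3% were. With scaling by edgeR's TMM or DESeq2's size factors in place of total counts the split was 7 higher and 0 lower. These scalings shift all genes, and no share over all genes is given here for them, so these counts cannot be set against the shares above. The members' median log2 ratio was -0.02, against -0.15 over all genes. Higher were Slc2a1, Vegfa with 120 and 50.2 CPM (1.26, 1.04 to 1.49), the lactate exporter Slc16a3 with 60.8 and 31.5 CPM (0.95), Pfkfb3 with 71.7 and 40.0 CPM (0.84) and Ankrd37 with 35 and 17 UMIs (0.70, -0.18 to 1.62). Slc2a1 and Slc16a3 carry sugar in and lactate out, and Pfkfb3 speeds the pathway. The most abundant enzymes did not follow: Pgk1 had a log2 ratio of 0.01, Aldoa -0.02, Ldha -0.19 and Eno1 -0.24, while Tpi1 (-0.65) and Pfkl (-0.60) were the 2 lower members. Pdk1, which slows the entry of pyruvate into mitochondria, had 13.6 and 16.4 CPM (-0.27), P4ha1 had 26.7 and 32.6 CPM (-0.29) and Bnip3 9.46 and 10.2 CPM (-0.11).

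**Figure D5:**
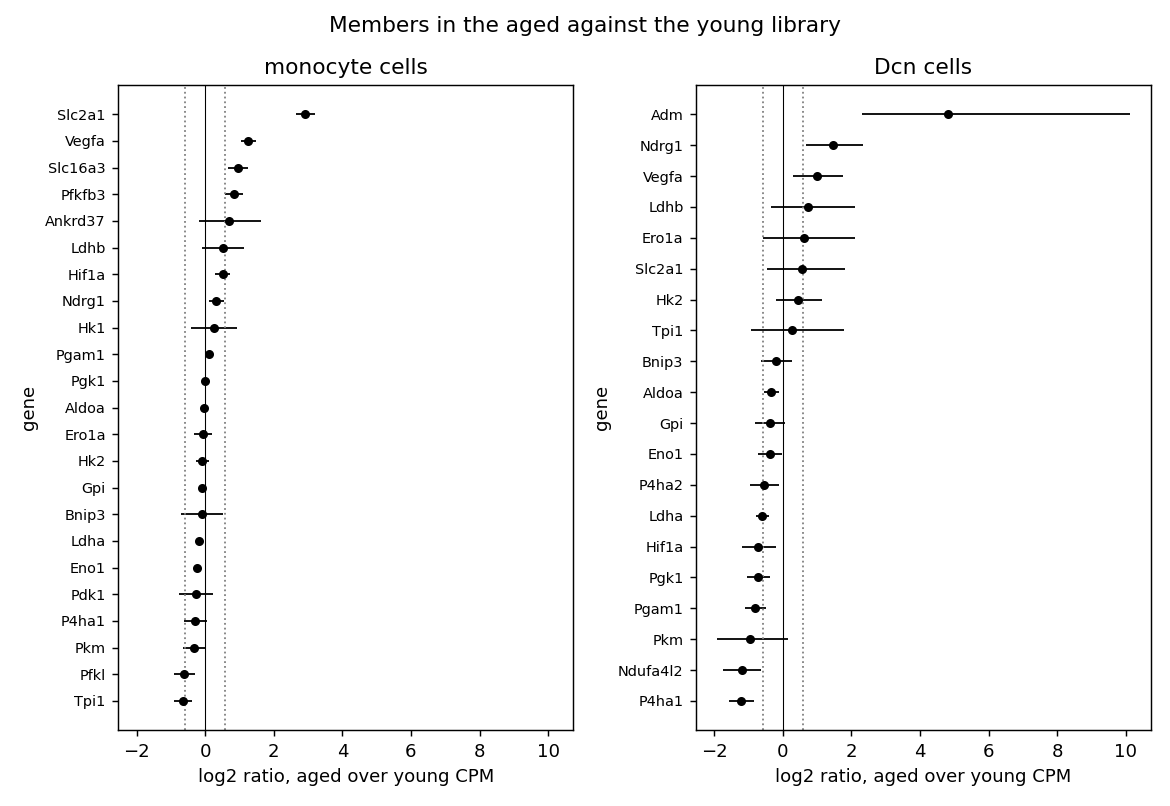
Log2 ratio of aged over young CPM (horizontal axis) of each measured member (vertical axis) in monocytes (left, 23 members) and Dcn cells (right, 20 members), points for the ratio and bars for exact 95% counting intervals, dotted lines at 1.5-fold. Slc2a1 stands apart at 2.91 in monocytes and Adm at 4.81, with the widest bar, in Dcn cells.

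In neutrophils the members differed little between the libraries. Of 20 measured, 2 were higher in the aged library (7.39% of 6563 genes) and 2 lower (25.8%), and the median log2 ratio was 0.05 against -0.27 over all genes. With either other scaling 4 were higher and 1 lower, for which no share over all genes is given here. Slc2a1 was higher (59 UMIs in 24 of 826 aged, 11 of them in 1 cell, and 35 in 32 of 1180 young cells, log2 ratio 1.41, 0.78 to 2.05), with 2.91% and 2.71% of cells holding a UMI. Also higher was Hif1a, with 66.5 and 33.5 CPM (0.99, 0.70 to 1.28). Lower were Egln3, which had 10.6 and 16.6 CPM (-0.64), and Ndufa4l2, whose 3 and 91 UMIs are those described above. Slc16a3 had a log2 ratio of 0.49 over the class, 0.77 (0.64 to 0.90) in granule-rich and 0.11 (-0.04 to 0.26) in granule-low cells. Vegfa had opposite ratios in these parts, with 30.5 and 16.5 CPM in granule-rich and 73.2 and 162 CPM in granule-low cells.

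Dcn cells, the most frequent stromal class of the aged library, had members on both sides. The gate took unlike cells from the libraries, with Col1a1 at 2424 CPM in the aged and 32740 in the young cells, Col3a1 at 3938 and 16874 and Sparc at 2859 and 18253, and what part that has in the members' values was not tested. Of 20 measured, 5 were higher in the aged library (19.2% of 5441 genes) and 7 lower (19.9%), and the median log2 ratio was -0.36 against -0.09. With DESeq2's size factors 7 were higher and 4 lower, for which no share over all genes is given here. The young values rest on 21 cells. Adm, a peptide that widens vessels, had 232 UMIs in 104 of 463 aged cells and 1 UMI in 1 of 21 young cells (81.7 and 2.92 CPM, log2 ratio 4.81, 2.31 to 10.12). Vegfa had 104 and 52.6 CPM (0.99, 0.30 to 1.76) and Ndrg1, a stress-induced gene, 112 and 40.9 CPM (1.45, 0.68 to 2.34). Ldhb (97 and 7 UMIs) and Ero1a (76 and 6 UMIs), the other two higher members, had intervals that include 0.

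Lower in aged Dcn cells were P4ha1, with 102 and 237 CPM (-1.21, -1.57 to -0.84), Ndufa4l2, with 45.8 and 105 CPM (-1.20, -1.74 to -0.62), Pgam1, with 194 and 339 CPM (-0.81), and Pgk1, with 156 and 257 CPM (-0.72). Ldha had 469 and 710 CPM (-0.60, -0.80 to -0.39), Hif1a 72.9 and 120 CPM (-0.72) and Pkm 47 and 11 UMIs (-0.96, -1.93 to 0.14). Without the cell with most UMIs of the gene in each library, the ratios of Ldha, Hif1a and Pkm came to -0.52, -0.50 and -0.27, within 1.5-fold.

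Postn cells also differed between the libraries in genes outside the list, with Col1a1 at 6173 CPM in the aged and 58627 in the young cells, Col3a1 at 13117 and 52151 and Sparc at 5559 and 27971, and the part of that was not tested. Adm had 4 UMIs in 4 of 24 aged cells and 224 in 32 of 52 young cells (26.1 and 236 CPM, log2 ratio -3.17, -5.06 to -1.80), the opposite direction to Dcn cells. Of 14 members measured there, 1 was higher in the aged library (18.8% of 2701 genes) and 3 were lower (15%). With DESeq2's size factors 1 was higher and 5 were lower, for which no share over all genes is given here. Vegfa was higher, with 255 and 128 CPM (0.99, 0.43 to 1.52), and P4ha2 lower, with 202 and 410 CPM (-1.02, -1.60 to -0.49). Ndufa4l2 had 0 aged and 55 young UMIs, and 23 of the 55 came from 1 cell. With 3 UMIs put in place of the aged 0 it was 2.95-fold lower, a value set by this floor and not a limit from counting error. Vegfa was thus higher in aged cells of both the Postn and the Dcn class.

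Chad cells, with 33 and 17 cells, fell under the minimum of 20 cells set for comparing ages and were added afterwards with a minimum of 15. None of 12 measured members was higher in the aged library (23.3% of 1046 genes) and 9 were lower (23.5%). The largest contrasts were P4ha1 (-1.50, -1.96 to -1.06), P4ha2 (-1.38, -1.83 to -0.95), Pgam1 (-1.18) and Pgk1 (-1.06). Ldha had a log2 ratio of -0.90 (-1.15 to -0.65) and Ndufa4l2 of -0.73 (-0.95 to -0.52), while Aldoa, Vegfa and Hif1a stayed within 1.5-fold. The gate took unlike cells from the libraries: Col1a1 had 268 CPM in the aged and 25769 in the young Chad cells, and Prg4 20223 and 4888. What part that has in the members' values was not tested.

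In B cells 1 of 14 members was higher in the aged library (5.34% of 6442 genes) and 2 lower (34.3%), or 2 and 2 with either other scaling: Ldhb had 132 and 82.7 CPM (0.67, 0.09 to 1.20), though -0.11 as a mean over cells, and Hk2 (1 and 81 UMIs) and Tpi1 (3 and 134 UMIs) had intervals that include 0. These counts hold for a gate that kept 23 aged cells: 14 members were 1.5-fold apart with gates halved, 19 with a gate of 1 UMI and 12 with a minimum of 20 counts. The sum differed with dividing cells, being 0.275% in the 12 aged and 0.270% in the 195 young B cells with at least 2 UMIs of Mki67 and Top2a, and 0.0825% and 0.152% in those with 0. Monocytes had 0.590% and 0.578% in cycling cells and 0.412% and 0.408% in cells with 0 of these UMIs, and cells with 1 UMI were in neither group. In erythroid cells 2 of 7 members were higher (24.6% of 2869 genes) and 0 lower (9.9%), Pgk1 (0.69) and Ldha (0.78), and without the top cell of each library, which held 32 of 84 aged Pgk1 UMIs and 51 of 112 aged Ldha UMIs, they came to 0.47 and 0.44. With either other scaling 0 erythroid members were higher and 1 was lower, while 6 members were apart with gates halved and 4 with gates doubled. For B and erythroid cells no share over all genes is given here under the other scalings, gates and count minimums.

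Further genes of these pathways were taken from 2 lists. Of 38 other genes of glycolysis and linked routes 36 were in the files, and of 32 other hypoxia genes 30 were. In monocytes 0 of 21 other glycolysis genes measured were higher in the aged library (8.08% of all genes) and 2 lower (15.3%), the enolase Eno3 (-1.04, -1.44 to -0.64) and the glycogen branching enzyme Gbe1 (-0.79). Of 13 other hypoxia genes, against the same shares, 4 were higher, among them Ddit4 (1.09, 0.78 to 1.41), and 1 was lower, Bnip3l, which marks mitochondria for removal, at -0.59. In neutrophils 3 of 13 other hypoxia genes were higher (7.39% of all genes), Bhlhe40 at 2.21 (1.48 to 3.0) and the fat-droplet protein Plin2 at 1.28 (1.02 to 1.54) the most, and 2 lower (25.8%), Cox4i2 (1 and 86 UMIs) and Bnip3l (-0.62). Of 18 other glycolysis genes there, 2 were higher, Slc2a6 (0.93) and Pdha1 (0.65), and 1 lower, Pgm1 (-0.61).

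The stromal classes split in the same lists. In Dcn cells 6 of 15 other hypoxia genes were higher in the aged library (19.2% of all genes), led by Angptl4 with 176 and 14.6 CPM (3.59, 2.36 to 5.22) and Bhlhe40 with 87.4 and 11.7 CPM (2.90, 1.53 to 4.79). Another 4 were lower (19.9%), led by Cox4i2, a subunit of cytochrome oxidase made at low oxygen, with 32.8 and 126 CPM (-1.94, -2.48 to -1.38), and Epas1 (-1.28). In Chad cells 4 of 9 were higher (23.3%), Ddit4 (2.15) among them, and 5 lower (23.5%), Cox4i2 (-1.76) and Lox (-1.16) the most. In Postn cells 0 of 7 were higher (18.8%) and 3 lower (15%), Cox4i2 with 0 and 52 UMIs and Lox at -0.76 (-1.33 to -0.23) among them, and 1 of 6 other glycolysis genes was higher, Taldo1 (0.60). Of the other glycolysis genes in Dcn cells, 2 of 15 were higher, Rpia (1.11) and Rpe (0.90), and 7 lower, Pdk3 (-2.20) and Pgm1 (-1.47) the most. Chad cells had 1 of 3 lower, Tkt (-0.63). In B cells 0 of 17 were higher (5.34%) and 4 lower (34.3%), Adpgk (-1.91, -4.97 to -0.03) and Slc16a1 (-1.04) the most, and 1 of 9 other hypoxia genes was lower, Fam162a (-0.60). Of the 10 glycolysis and 5 hypoxia genes measured in erythroid cells, 0 and 1 were higher (24.6%) and 3 and 1 lower (9.9%). The 1 higher gene was Higd1a, at 1.24 (0.61 to 1.86), and among the lower were Slc16a1 (-0.76), Bpgm, the enzyme that makes the oxygen-release factor of red cells, at 250 and 761 CPM (-1.60, -1.84 to -1.37), and Bnip3l at 267 and 639 CPM (-1.26, -1.49 to -1.03).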

How the data were processed

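Gene counts per cell barcode were deposited by the authors as whole-number UMI counts for 1 aged and 1 young rat meniscus library, made with Cell Ranger 6.1.1 per the submitters' processing notes. The genome build is not given in the sources used here. Counts of a gene were summed over the cells of a class and divided by the class total, as CPM (per 1000000) or percent, with exact Clopper-Pearson, Poisson or conditional binomial 95% intervals. No doublet caller was run, and 30 aged and 62 young cells that passed gates of more than 1 class were left out. Neutrophils also needed S100a8 at 0.5% of their UMIs. Ratios used genes with at least 50 UMIs over both groups, classes with at least 20 cells in both libraries, and 3 UMIs as the floor for a count of 0. A member was counted as higher or lower at 1.5-fold by size alone, and no test was made. The rule for named genes covers all members with counts and, from the 2 other lists, the 2 genes with the largest ratio in each direction, given here where at least 1.5-fold apart, and 1 gene is not reported here. The ratio script was tested on simulated data.

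The members and lists were chosen with earlier results of these data known. Near-identical pseudogene copies of several enzymes make their counts uncertain where reads fit more than 1 copy. Alternatives covered cell filters, gates, the count minimum, thinning, means over cells and scaling with edgeR 4.0.16 (R 4.3.3) or DESeq2 1.42.0, and those added after seeing the data were a B gate of 1 UMI, a minimum of 15 cells, leaving out the top cell, the monocyte splits and the Ndufa4l2 split. Python 3.11.15, numpy 2.4.6 and scipy 1.17.1 were used.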

Additional observations from a re-analysis of the deposited data

Results flagged for a closer look

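Several members had opposite directions between the libraries in different cell classes, and none of these differences was tested, since each age has 1 library. Adm had a log2 ratio of aged over young of 4.81 in Dcn cells and of -3.17 in Postn cells. Hif1a had 0.99 in neutrophils and -0.72 in Dcn cells. Pgk1 had 0.69 in erythroid and -0.72 in Dcn cells, and Ldha had 0.78 in erythroid and -0.60 in Dcn cells. Without the cell with most UMIs of the gene in each library, the erythroid values were 0.47 for Pgk1 and 0.44 for Ldha, and in Dcn cells Ldha came to -0.52 and Hif1a to -0.50, all within 1.5-fold. Under either other scaling 0 erythroid members were higher. The libraries' Dcn and Postn cells also differed in Col1a1, which was lower in the aged cells of both.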

How the results depend on the processing

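Members at least 1.5-fold apart in a class gave 410 values under other settings. Of these, 367 kept their direction and stayed at least 1.5-fold apart, by whatever amount they moved. Another 42 fell under 1.5-fold, and 1 turned, Ldhb in B cells, to -0.11 as a mean over cells. Of 41 pairs of a member and a class at least 1.5-fold apart, 23 kept their direction and stayed at least 1.5-fold apart under every alternative. The same gene can count in several classes. Between thinning to 2000 and to 1000 UMIs, 22 shares of cells with a UMI moved by at least 10 points and 83 did not. Shares under 10% could not fall that far, so the 83 are no measure of stability. Small cell numbers limit mainly the aged B and Postn cells (23 and 24) and the young Dcn and Chad cells (21 and 17), where most members gave few UMIs. Leaving out Gapdh was not run because it matched no symbol. No paired analysis was possible because each age has 1 library and no result comes from a test.

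The edgeR TMM and DESeq2 scalings shifted all log2 ratios by -0.10 and -0.31 in Postn, 0.11 and 0.22 in Dcn, 0.25 and 0.30 in neutrophil, 0.15 and 0.19 in monocyte, 0.32 and 0.22 in B and -0.26 and -0.29 in erythroid cells. The log2 ratio of the summed share then came to -0.49 in Postn cells (DESeq2; -0.18 with total counts), -0.26 and -0.15 in Dcn cells (-0.37), 0.39 and 0.43 in neutrophils (0.13), 0.15 and 0.20 in monocytes (0.01), 0.081 and -0.015 in B cells (-0.24) and 0.21 and 0.18 in erythroid cells (0.48). With the stricter cell filter (1000 genes, 10% mitochondrial) it was 0.076 in neutrophils and 0.11 in erythroid cells. In monocytes it was 0.074 as a mean over cells and -0.022 without mitochondrial counts. With gates halved it was -0.65 in B and 0.82 in erythroid cells, with gates doubled 0.88 in erythroid cells, and with a B gate of 1 UMI -0.62. With at least 5 Ndufa4l2 UMIs the split of young Col2a1 cells gave 1.41.

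The number of members at least 1.5-fold apart went from 4 to 2 in Postn cells with a minimum of 200 counts, and in neutrophils from 4 to 8 with a minimum of 20 and to 1 with 200. In monocytes it went from 7 to 4 with gates doubled. In B cells it went from 3 to 14 with gates halved, 6 as a mean over cells, 19 with a gate of 1 UMI, and 12 and 1 with minimums of 20 and 200. In erythroid cells it went from 2 to 1 with the stricter cell filter and under both scalings, 6 with gates halved, and 4 with gates doubled or as a mean over cells. The shares over all genes under these settings are not given here, and the cause of these moves was not tested.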
